A study of Mus musculus with 60 samples.

Results

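The genes described here encode the constitutive proteasome, measured by RNA-seq in mouse hippocampus. They were taken by name: a symbol that starts with Psma, Psmb, Psmc, Psmd or Psme followed by a number, without the immunoproteasome genes Psmb8, Psmb9 and Psmb10 and without pseudogenes, and with a mean of at least 1 TPM (a transcript level scaled by gene length and library total) over all libraries. Of 47643 symbols in the table, 49 fit these letters, 7 were left out by name (4 of them pseudogenes), 2 fell under the minimum and 40 remained. Psma8 (mean 0.796 TPM) and Psmb11 (0.543 TPM), known from testis and thymus, lay just outside the minimum, and Psme2b (1.29 TPM) and Psmc3ip (3.37 TPM) just inside it. Psmc3ip fits the letters but encodes a protein of meiotic recombination, so 39 of the 40 genes have a role in the proteasome. All 40 genes were tested.

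The samples were 60 libraries of hippocampus from female mice of 2 months. The animals had received melanoma cells that cause cachexia, the wasting of muscle and fat in cancer (CAC), melanoma cells that do not (NCAC), or a mock injection (Con), and tissue was taken at 2, 4, 6 and 8 wk. CAC had 4, 5, 5 and 7 libraries at these times, NCAC 5, 5, 4 and 5, and Con 5 each. The labels do not settle the host: the sample labels give the strain C57BL6/J, the design text gives NCI Ath/nude, which are athymic mice that lack mature T cells, and the extraction protocol mentions LLC, a tumour line of no group. The labels name neither melanoma line and call the libraries biological replicates, but do not tie each to its own animal, so the p-values rest on the spread among these libraries, which may in part be technical.

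The proteasome is the main protease of the cytosol and nucleus. A barrel, the 20S core, is built of alpha subunits that gate the entry and beta subunits, of which Psmb5, Psmb6 and Psmb7 cut proteins with chymotrypsin-like, caspase-like and trypsin-like specificity. The 19S particle caps the barrel: its Psmd subunits bind ubiquitinated proteins and remove the ubiquitin, its Psmc ATPases unfold them, and other activators (Psme) can take its place. In muscle this system carries out much of the protein loss of cachexia, and in hippocampal neurons it turns over synaptic proteins during plasticity.

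Over all 60 libraries, levels within each role differed several-fold between genes. The 7 alpha subunits had mean levels from 72.9 TPM (Psma7) to 269 TPM (Psma2), and the 7 beta subunits from 71.2 TPM (Psmb3) to 273 TPM (Psmb1). The 6 ATPases ranged from 65.5 TPM (Psmc2) to 278 TPM (Psmc5), with Psmc1 at 276 TPM. The 11 non-ATPase subunits of the 19S particle ranged from 32.2 TPM (Psmd11) to 183 TPM (Psmd2). The 3 chaperones that help assemble the 19S base, Psmd5, Psmd9 and Psmd10, were lower, at 13.1 to 32.8 TPM. Among the 5 activator genes, Psme3, a nuclear activator, was highest (109 TPM), and the others lay at or below 40.1 TPM. Psme2b, an almost identical copy of Psme2, was counted from 1 to 25 reads per library, and its values and those of Psme2 are uncertain where reads fit both.

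**Figure D1:**
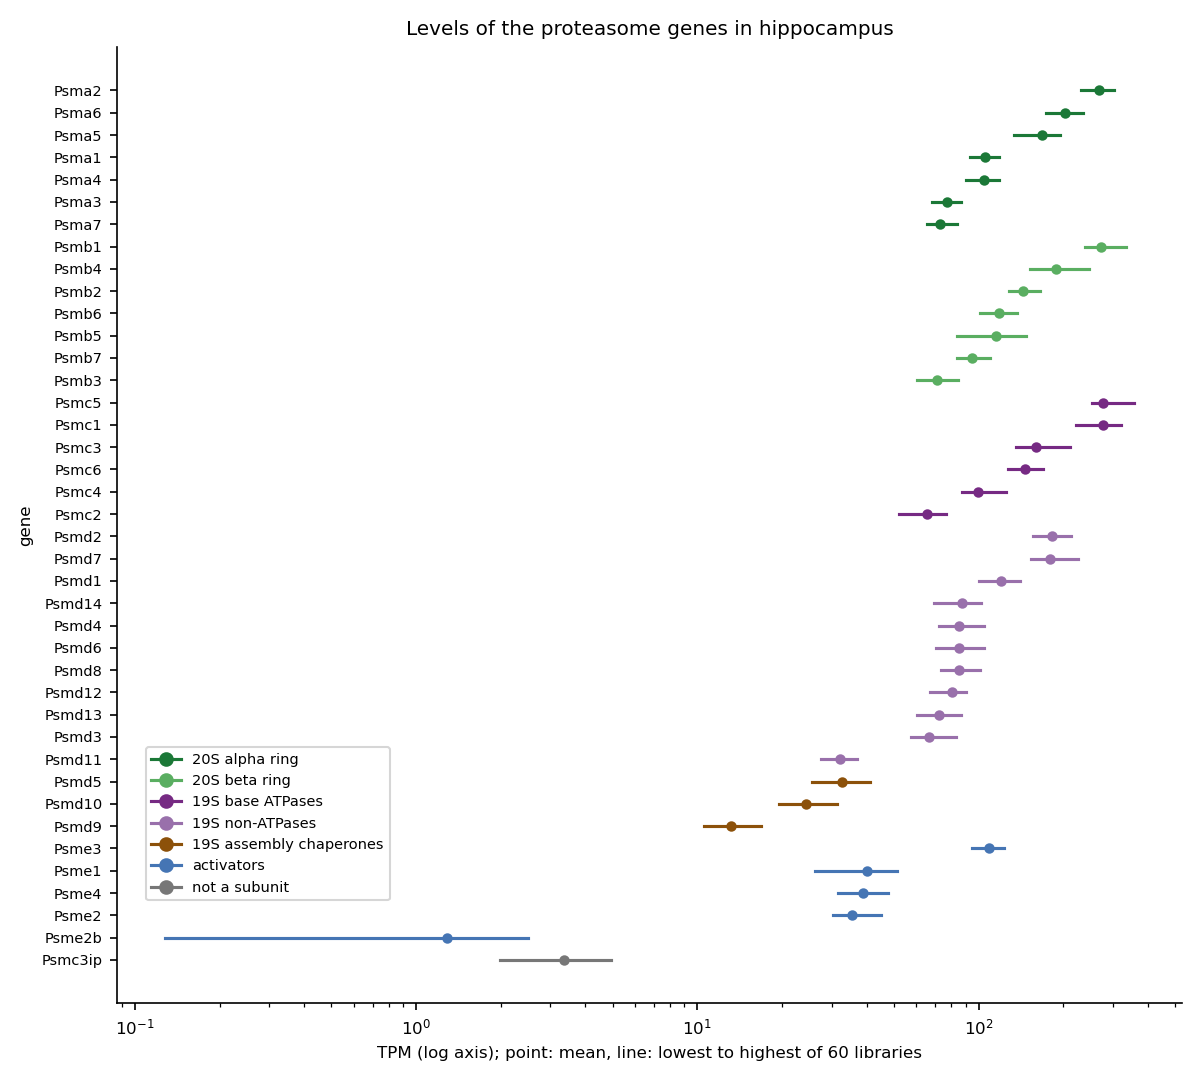
Mean TPM of each of the 40 genes (log axis, coloured by role), with a line from the lowest to the highest of the 60 libraries. The 19S assembly chaperones and all activators except Psme3 sit at or below 40.1 TPM, whereas Psmc5, Psmc1, Psmb1 and Psma2 lie between 269 and 278 TPM. Most lines are short beside the span of levels, and that of Psme2b is the longest (0.128 to 2.50 TPM).

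Depth was 32388197 to 42047145 reads per library, as recovered from the steps of the TPM values. The 7 marker genes of hippocampal pyramidal and granule cells summed to 549.96 to 986 TPM across the 60 libraries, so markers of the labelled tissue were present in each. Transcripts of the neighbouring striatum were highest in 3 libraries: 7 striatal genes summed to 1086 TPM in replicate 1 of CAC at 2 wk, 1350 TPM in replicate 1 of CAC at 4 wk and 1349 TPM in replicate 2 of Con at 4 wk. Their hippocampal sums were 598, 657 and 549.96 TPM. The 5 red cell marker genes summed highest in replicate 3 of CAC at 8 wk (7921 TPM). These 4 libraries were set aside in an alternative, with 2 more of CAC at 4 wk. Of those 2, replicate 4 was set aside for its striatal genes (249 TPM) and replicate 2 for its red cell genes (2742 TPM). The other 54 libraries had 77.8 to 166 TPM of the striatal genes. A different pair of libraries stood apart across the family. In Con at 6 wk, replicate 5 was the highest of its group for 35 of the 40 genes, with a mean log2(TPM + 0.5) of 6.51 over them beside 6.27 to 6.29 in the others. In NCAC at 8 wk, replicate 5 was the lowest of its group for 35 of the 40, with a mean of 6.12. Replicate 5 of Con at 6 wk also had a different slope of expression on gene length, at -0.0479 log2 per doubling of length beside 0.0122 to 0.0708 in its group, and on GC content, at 0.101 log2 per 10% GC beside -0.101 to 0.0479. Replicate 5 of NCAC at 8 wk had the highest mean level of 8 oligodendrocyte genes in its group (7.88 log2 beside 6.92 to 7.69) and the lowest of the choroid plexus genes (2.08 beside 3.23 to 6.00). The part of these traits in the family's level was not tested.

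**Figure D2:**
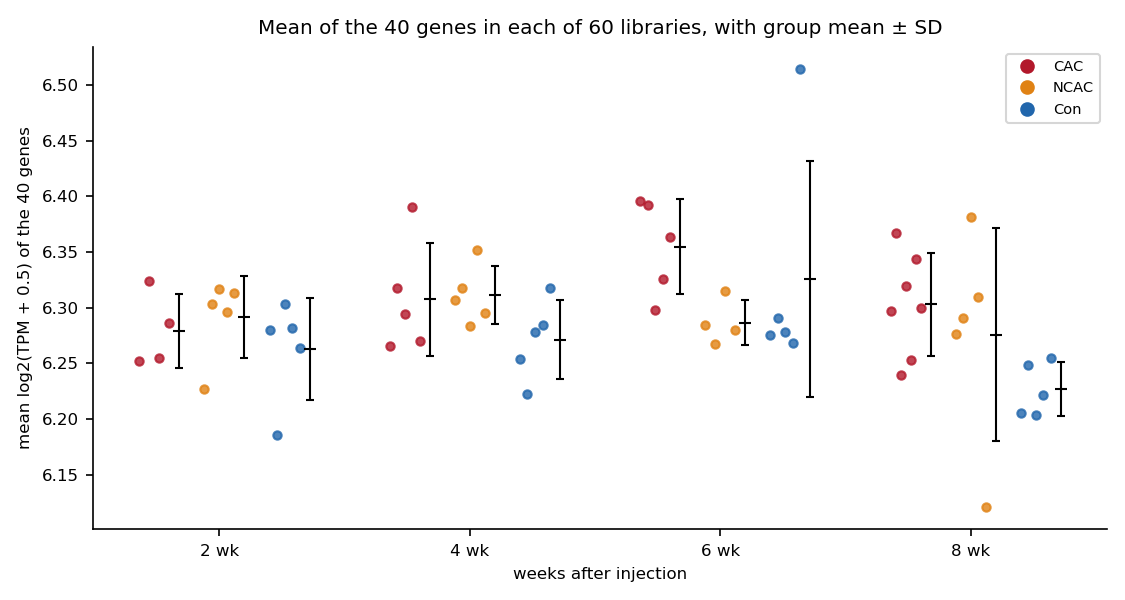
Mean log2(TPM + 0.5) of the 40 genes in each of the 60 libraries (points), by week and injection, with the mean ± SD of each group. Most libraries lie close together; replicate 5 of Con at 6 wk is high at 6.51, and replicate 5 of NCAC at 8 wk is low at 6.12.

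The group means of the proteasome genes were compared across injections and weeks. For the 39 genes with a role, the ratio of the highest to the lowest of the 12 group means had a median of 1.15, and it stayed under 1.2 for 25 genes. This ratio was not computed over all genes, so it does not show whether the family varied less than others. Psmc4, an ATPase, had the smallest ratio, 1.07, and 1.12 with 6 libraries rich in striatal or blood transcripts set aside. Apart from Psme2b (1.74), the widest was that of Psmb5, from 93.9 ± 15.9 TPM in CAC at 2 wk (SD, n = 4) to 140 ± 5.21 TPM in Con at 8 wk (SD, n = 5), a ratio of 1.49. Psme4, a large nuclear activator (1.27), Psmd9 (1.26) and Psmc2 (1.25) followed. Con at 8 wk was the lowest of the 12 groups for 18 of the 39 genes and CAC at 2 wk for 10, while CAC at 6 wk was the highest for 17. These counts have no share of all genes beside them and are not read as particular to the family. From 2 wk to 8 wk in Con, 32.5% of the 40 differences were above 0, beside 37.2% of all genes. With the 6 rich libraries set aside, CAC at 2 wk was lowest for 4. Without replicate 5 of Con at 6 wk and replicate 5 of NCAC at 8 wk, which stood apart, CAC at 6 wk was highest for 15. Within groups, the SD of log2(TPM + 0.5) had a median of 0.0864 over the 40 genes (0.0744 without these 2 libraries), beside 0.153 over all 15608 genes tested and 0.109 over the 3336 genes with a mean of 50 to 300 TPM.

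Around the group means, the subunits moved together from library to library, as a description of these 60 libraries in which every gene shares the library's depth and composition. Over the 780 pairs of the 40 genes the median Pearson correlation was 0.33, and 88.7% of pairs were above 0, beside a median of 0.06 between these genes and other genes. Without the pair of libraries named above the median over all pairs was 0.18, 75.8% of pairs were above 0, and the median with other genes was 0.04. Pairs within the 20S core had a median of 0.59 and pairs within the 19S particle 0.46, whereas pairs of a core and a 19S gene had 0.33. The alpha subunits had the closest relation (0.68, and 0.60 without the pair), and the 3 assembly chaperones almost none (0.04, and -0.04). Without the pair the medians were 0.48 within the core, 0.32 within the 19S particle and 0.13 between them. With each library's trend on gene length and GC content removed they were 0.42, 0.44 and 0.34, and 0.29 over all pairs.

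Since the subunits moved together and the factor Nfe2l1 is known to raise them together when proteasome activity falls, promoters were searched for TGACNNNGC, the core of the element that such CNC-bZIP factors and their small Maf partners bind. RefSeq promoters on GRCm38.p6, of 250 bases before to 50 after the gene start, matched 34 of the 40 genes. On either strand, 6 of the 34 (17.6%) held the letters, beside 14% of all genes with a promoter. The 6 were Psmb5, Psmb6, Psmc6, Psmd12, Psmd9 and Psme4. GGGCGG, the GC box, was in 21 of the 34 (61.8%, beside 38.2% of all genes), CCAAT in 13 (38.2%, beside 41.1%), and TATAAA in 3 (8.82%, beside 15.7%), each searched on both strands. The promoters shown are those of the catalytic subunits Psmb5 and Psmb6 and that of Psmc1, whose level differed most at 8 wk. Also shown are Psmd12 and Psme4, the only ones with these letters among 9 searched genes called between CAC and Con at 8 wk. Psmb2, which was also called, and the catalytic Psmb7 had no matched promoter. Capitals mark the TGACNNNGC match on either strand, and positions count from the gene start as 0. A match is a run of letters and not a measured binding site.
Psmb5 promoter (chr14:54617946-54618245, minus strand): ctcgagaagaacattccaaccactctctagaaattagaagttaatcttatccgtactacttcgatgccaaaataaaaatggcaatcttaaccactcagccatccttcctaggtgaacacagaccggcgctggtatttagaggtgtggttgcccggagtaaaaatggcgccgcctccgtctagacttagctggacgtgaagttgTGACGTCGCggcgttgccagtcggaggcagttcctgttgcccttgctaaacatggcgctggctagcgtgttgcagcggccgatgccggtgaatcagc
Psmb6 promoter (chr11:70525107-70525406, plus strand): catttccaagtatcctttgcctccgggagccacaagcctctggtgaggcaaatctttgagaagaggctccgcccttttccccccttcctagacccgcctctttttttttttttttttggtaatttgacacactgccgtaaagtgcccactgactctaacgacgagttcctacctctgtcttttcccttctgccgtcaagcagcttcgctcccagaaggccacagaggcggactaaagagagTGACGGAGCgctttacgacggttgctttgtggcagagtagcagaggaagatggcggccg
Psmd12 promoter (chr11:107479278-107479577, plus strand): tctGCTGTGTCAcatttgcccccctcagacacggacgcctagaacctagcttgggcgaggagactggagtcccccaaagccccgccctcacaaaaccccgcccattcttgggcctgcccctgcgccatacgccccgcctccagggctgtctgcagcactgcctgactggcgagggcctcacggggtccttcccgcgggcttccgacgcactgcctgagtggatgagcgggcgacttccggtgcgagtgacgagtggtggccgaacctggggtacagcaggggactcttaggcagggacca
Psme4 promoter (chr11:30771525-30771824, plus strand): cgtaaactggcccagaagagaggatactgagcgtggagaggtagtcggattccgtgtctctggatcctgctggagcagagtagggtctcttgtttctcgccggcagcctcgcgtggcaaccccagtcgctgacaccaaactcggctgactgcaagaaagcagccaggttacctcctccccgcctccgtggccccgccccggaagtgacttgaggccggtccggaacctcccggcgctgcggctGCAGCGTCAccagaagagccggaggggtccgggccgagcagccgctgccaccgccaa
Psmc1 promoter (chr12:100109952-100110251, plus strand): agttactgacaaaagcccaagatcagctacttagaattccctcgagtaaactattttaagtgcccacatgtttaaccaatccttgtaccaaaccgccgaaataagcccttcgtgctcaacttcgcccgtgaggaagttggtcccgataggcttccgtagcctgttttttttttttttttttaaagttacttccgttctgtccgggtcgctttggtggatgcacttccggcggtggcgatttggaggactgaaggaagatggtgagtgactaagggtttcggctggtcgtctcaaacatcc
In Psmb5 the match began at position -47 and in Psmb6 at -9, both on the gene's strand. In Psmd12 it began at -247 and in Psme4 at -7, both on the other strand. The Psmc1 window held no match, which says only that these letters are not within it.

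The comparison of CAC with Con at 8 wk asks which transcripts differ between mice with cachectic tumour cells and mock-injected mice at the last time point. A limited set of 19S, beta ring and activator genes was higher in CAC by small amounts, 0.13 to 0.22 log2, led by Psmc1. Of the 40 genes, 10 were higher and none was lower at an adjusted p under 0.05 (limma over all 15608 genes), where 14.5% of all genes tested were called, 11.3% higher and 3.2% lower. Of the 40 differences 32 were above 0 (80%, beside 61.1% of all genes), with a median of 0.09 log2 beside 0.05 for all genes. At an unadjusted p under 0.05 there were 17 of the 40, beside 31.3% of all genes. In 5 genes, Psmc1, Psmd13, Psmd14, Psmb3 and Psmd1, every CAC library was above every Con library, as in 4.72% of all genes. None lay wholly below, beside 2.29% of all genes. The Psmd1 difference, 0.14 log2, had an adjusted p of 0.0511. In bulk tissue, more RNA per cell and more cells of a type that holds much of it cannot be told apart.

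Among the 6 ATPases, which unfold substrates and open the gate, Psmc1 and Psmc2 were higher in CAC and all 6 differences were above 0. Psmc1 (chr12:100110154-100123405, plus strand, GRCm38) had a lowest, median and highest level of 266, 279 and 297 TPM in the 7 CAC libraries at 8 wk. Its Con libraries had 236, 240, 242, 244 and 248 TPM, and its NCAC libraries 222, 267, 270, 271 and 297 TPM. The CAC and Con values did not overlap, and 4 of the 5 NCAC values lay above all Con values, while the NCAC value of 222 TPM was that of replicate 5. The difference was 0.22 ± 0.05 log2 (SE, adjusted p = 0.00484). Psmc2 had 59.9, 65.2 and 71.1 TPM as lowest, median and highest in CAC and 54.9, 56.4, 58.0, 59.4 and 60.3 TPM in Con. Only the lowest CAC library fell within the Con range. Its difference was 0.17 ± 0.05 log2 (adjusted p = 0.0176).

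All 11 non-ATPase subunits of the 19S particle had a difference above 0, and 3 of them passed the test. Psmd12, a scaffold of the 19S lid, had 72.9, 79.8 and 88.3 TPM as lowest, median and highest in CAC and 67.4, 69.4, 70.5, 73.3 and 74.6 TPM in Con. One CAC library lay within the Con range. The difference was 0.17 ± 0.05 log2 (adjusted p = 0.0141). Psmd13, another lid scaffold, had 67.6, 72.1 and 76.8 TPM in CAC and 61.5, 63.6, 65.1, 65.2 and 65.7 TPM in Con, with no overlap and a difference of 0.16 ± 0.05 log2 (adjusted p = 0.0144). Psmd14, the lid's deubiquitinase, was also separate, at 78.0, 87.2 and 93.5 TPM in CAC and 72.2, 75.7, 76.1, 77.5 and 77.7 TPM in Con. It differed by 0.18 ± 0.05 log2 (adjusted p = 0.0199). Psmd2, which with Psmd1 forms the scaffold of the base, differed by 0.13 log2 (adjusted p = 0.0525) and did not pass.

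**Figure D3:**
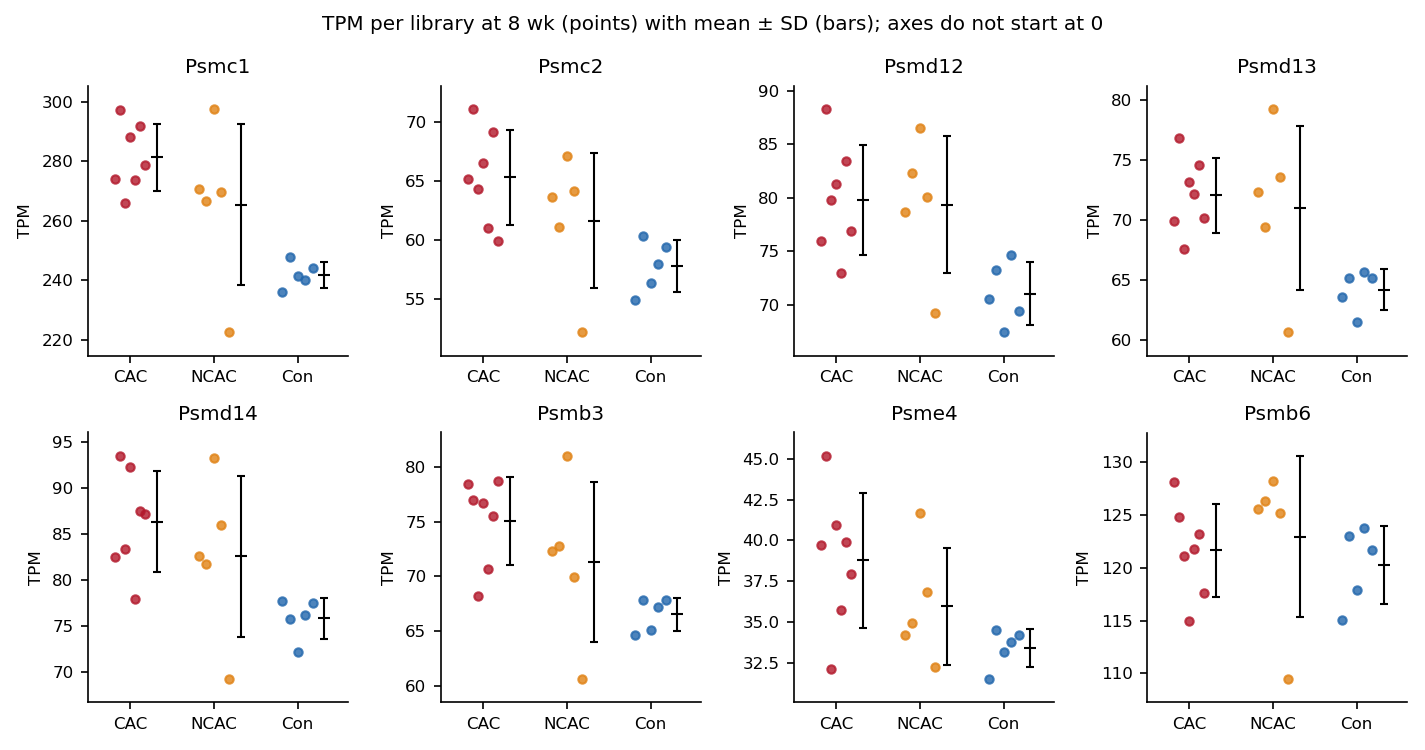
TPM of 8 genes per library at 8 wk (points) in CAC, NCAC and Con, with the mean ± SD of each group; the vertical axes do not start at 0. Psmc1, Psmd13, Psmd14 and Psmb3 show no overlap of CAC with Con, and replicate 5 of NCAC is the lowest NCAC point in these genes.

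In the core, none of the 7 alpha subunits passed, with a median difference of 0.08 log2 and 6 of 7 above 0. The alpha subunits with the smallest p-values were Psma6 and Psma3. Psma6 had 188, 201 and 217 TPM as lowest, median and highest in CAC and 183, 188, 189, 190 and 195 TPM in Con (0.11 ± 0.05 log2, adjusted p = 0.101). Psma3 had 70.6 to 81.5 TPM in CAC and 68.3 to 74.4 TPM in Con (0.09 ± 0.04 log2, adjusted p = 0.138). The ranges of both overlapped. In the beta ring 2 of 7 genes passed, both non-catalytic. Psmb3 had 68.2, 76.7 and 78.7 TPM in CAC and 64.6, 65.1, 67.2, 67.8 and 67.8 TPM in Con, without overlap (0.17 ± 0.05 log2, adjusted p = 0.0216). Psmb2 had 143, 156 and 165 TPM in CAC and 131, 138, 138, 142 and 150 TPM in Con, with 2 CAC libraries inside the Con range (0.14 ± 0.04 log2, adjusted p = 0.0222).

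No catalytic subunit passed. Psmb5 (chr14:54614119-54618022, minus strand, GRCm38) had 106, 136 and 141 TPM as lowest, median and highest in CAC at 8 wk. Its Con libraries had 134, 136, 139, 142 and 148 TPM, and its NCAC libraries 122, 126, 127, 132 and 141 TPM. The groups overlapped, and the CAC spread came mainly from 2 low libraries, at 106 and 113 TPM. The difference between CAC and Con was -0.12 ± 0.11 log2 (adjusted p = 0.478), and 0.11 log2 with the length and GC trends removed (adjusted p = 0.281). Psmb6 had 115, 122 and 128 TPM in CAC and 115, 118, 122, 123 and 124 TPM in Con, ranges that nearly coincide (0.02 ± 0.05 log2, adjusted p = 0.861). Psmb7 had 92.2, 96.6 and 107 TPM in CAC and 89.8, 91.2, 93.8, 94.0 and 94.0 TPM in Con, where all but the lowest CAC library exceeded the Con range (0.08 ± 0.05 log2, adjusted p = 0.26).

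Among the assembly chaperones, Psmd5, which holds ATPases during base assembly, had 29.7, 32.9 and 36.1 TPM in CAC and 27.6, 28.2, 28.7, 29.0 and 30.8 TPM in Con. It was higher by 0.17 ± 0.06 log2 (adjusted p = 0.0462), with 2 CAC libraries inside the Con range. The call of Psmd5 was lost in 5 of 10 alternatives and in 8 of 12 fits with a library left out. Psmd9 had 11.8, 14.4 and 16.2 TPM in CAC and 12.6 to 14.5 TPM in Con, and its difference of 0.09 ± 0.07 log2 did not pass (adjusted p = 0.445). Among the activators, Psme4 had 32.1, 39.7 and 45.2 TPM in CAC and 31.5, 33.2, 33.8, 34.2 and 34.5 TPM in Con, and 1 CAC library lay within the Con range. Its difference was 0.20 ± 0.07 log2 (adjusted p = 0.0307). Psme3 had 106, 112 and 124 TPM in CAC and 103, 104, 105, 105 and 107 TPM in Con, again with 1 CAC library in the Con range (0.13 ± 0.04 log2, adjusted p = 0.0272). The call of Psme4 was lost in 5 of 10 alternatives and in 6 of 12 fits with a library left out. For Psme3 these were 3 of 10 and 5 of 12. The interferon-induced activator Psme2 differed by -0.11 ± 0.06 log2 (adjusted p = 0.22).

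The number of calls in this comparison depended on the scaling of libraries and on single libraries. With median-of-ratios scaling, 1 of the 40 genes passed instead of 10 (9.03% of all genes), and with limma voom on the recovered reads also 1. That scaling moved the median of the 40 differences to 0.03 log2, with 26 of 40 above 0, and over all genes it gave 679 of 1409 calls higher, beside 1757 of 2256 in the main test. The count was 1 without replicate 3 of Con, 3 without replicate 2 of CAC, 5 without replicate 1 of Con and 6 without replicate 6 of CAC. The share of all genes called is not given here for voom or for these fits. Those counts are thus not read as a result about the family. Psmc1 passed in all 10 alternatives and with each library left out in turn, at 0.16 to 0.24 log2 (highest adjusted p = 0.0315). None of the 9 other genes passed under median-of-ratios scaling or voom.

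Library traits differed between these groups as well. The slope of expression on gene length was -0.0984 to -0.0824 log2 per doubling in Con at 8 wk and -0.0515 to 0.0291 in CAC, without overlap. The slope on GC content was 0.0874 to 0.116 log2 per 10% in Con and -0.0514 to 0.156 in CAC. With both trends removed, 9 of the 40 genes passed (10.2% of all genes), 34 differences were above 0, and their median was 0.08 log2 beside 0.02 over all genes. The 9 were not all among the genes called in the main test. Of those, Psmc2 (0.09 log2, adjusted p = 0.217), Psmd5 (0.07 log2, adjusted p = 0.251) and Psme4 (0.10 log2, adjusted p = 0.144) did not pass. Of the marker lists, 2 of 10 neuronal genes were higher (median 0.05 log2, summed level 4658 to 4893 TPM in CAC and 4464 to 4746 TPM in Con). Of the oligodendrocyte genes 1 of 8 was lower (median -0.32 log2, 1277 to 2375 TPM in CAC and 1391 to 2286 TPM in Con). Of the 7 hippocampal pyramidal and granule cell genes 1 was higher (median 0.05 log2, 721 to 855 TPM in CAC and 702 to 804 TPM in Con). Of the endothelial genes 2 of 6 were higher and 1 lower (median 0.04 log2, 165 to 249 TPM in CAC and 177 to 199 TPM in Con). Of the astrocyte genes 1 of 8 was higher and 1 lower (median 0.02 log2, 2787 to 3407 TPM in CAC and 2633 to 2848 TPM in Con). None of the 7 microglial genes (median -0.25 log2, 358 to 486 TPM in CAC and 407 to 571 TPM in Con) and none of the 5 red cell genes (median -0.41 log2, 113 to 7921 TPM in CAC and 508 to 1613 TPM in Con) passed. None of the 7 striatal, 7 thalamic and 7 choroid plexus genes passed either (medians 0.00257, 0.00402 and -0.19 log2). The part of these lists in the result was not tested. Without the blood-rich replicate 3 of CAC, 12 of the 40 proteasome genes passed, a count with no share of all genes beside it.

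NCAC shared its Con libraries with the comparison above, and its values at 8 wk are set beside it. NCAC minus Con gave a median of 0.06 log2 over the 40 genes (0.10 log2 without replicate 5 of NCAC), with 32 differences above 0 (80%, beside 59.4% of all genes). None of the 40 passed, where 0% of all genes tested were called, and voom called 0. An unadjusted p under 0.05 was found for 7, beside 7.85% of all genes. The gene with the smallest p was Psmd12, at 0.16 log2 (adjusted p = 0.634), beside 0.17 log2 in CAC. Psmc1 was 265 ± 27.0 TPM in NCAC (SD, n = 5), and 276 ± 14.3 TPM without replicate 5 (SD, n = 4), between 281 ± 11.3 TPM in CAC (SD, n = 7) and 242 ± 4.33 TPM in Con (SD, n = 5). No gene of the 40 had NCAC wholly apart from Con, beside 2.81% of all genes.

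CAC compared directly with NCAC at 8 wk also gave none of 40, where 1.83% of all genes were called and voom called 0 of the 40. The 40 differences lay between -0.09 and 0.11 log2, with a median of 0.02 log2 (-0.02 log2 without replicate 5 of NCAC). Psmb2 (0.11 log2, adjusted p = 0.183) and Psme3 (0.10 log2, adjusted p = 0.214) were the 2 genes with an unadjusted p under 0.05, which 15.5% of all genes had. Whether CAC and NCAC differ in the family at 8 wk was thus not resolved at this spread. None of the 40 had separate CAC and NCAC ranges, beside 1.15% of all genes.

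**Figure D4:**
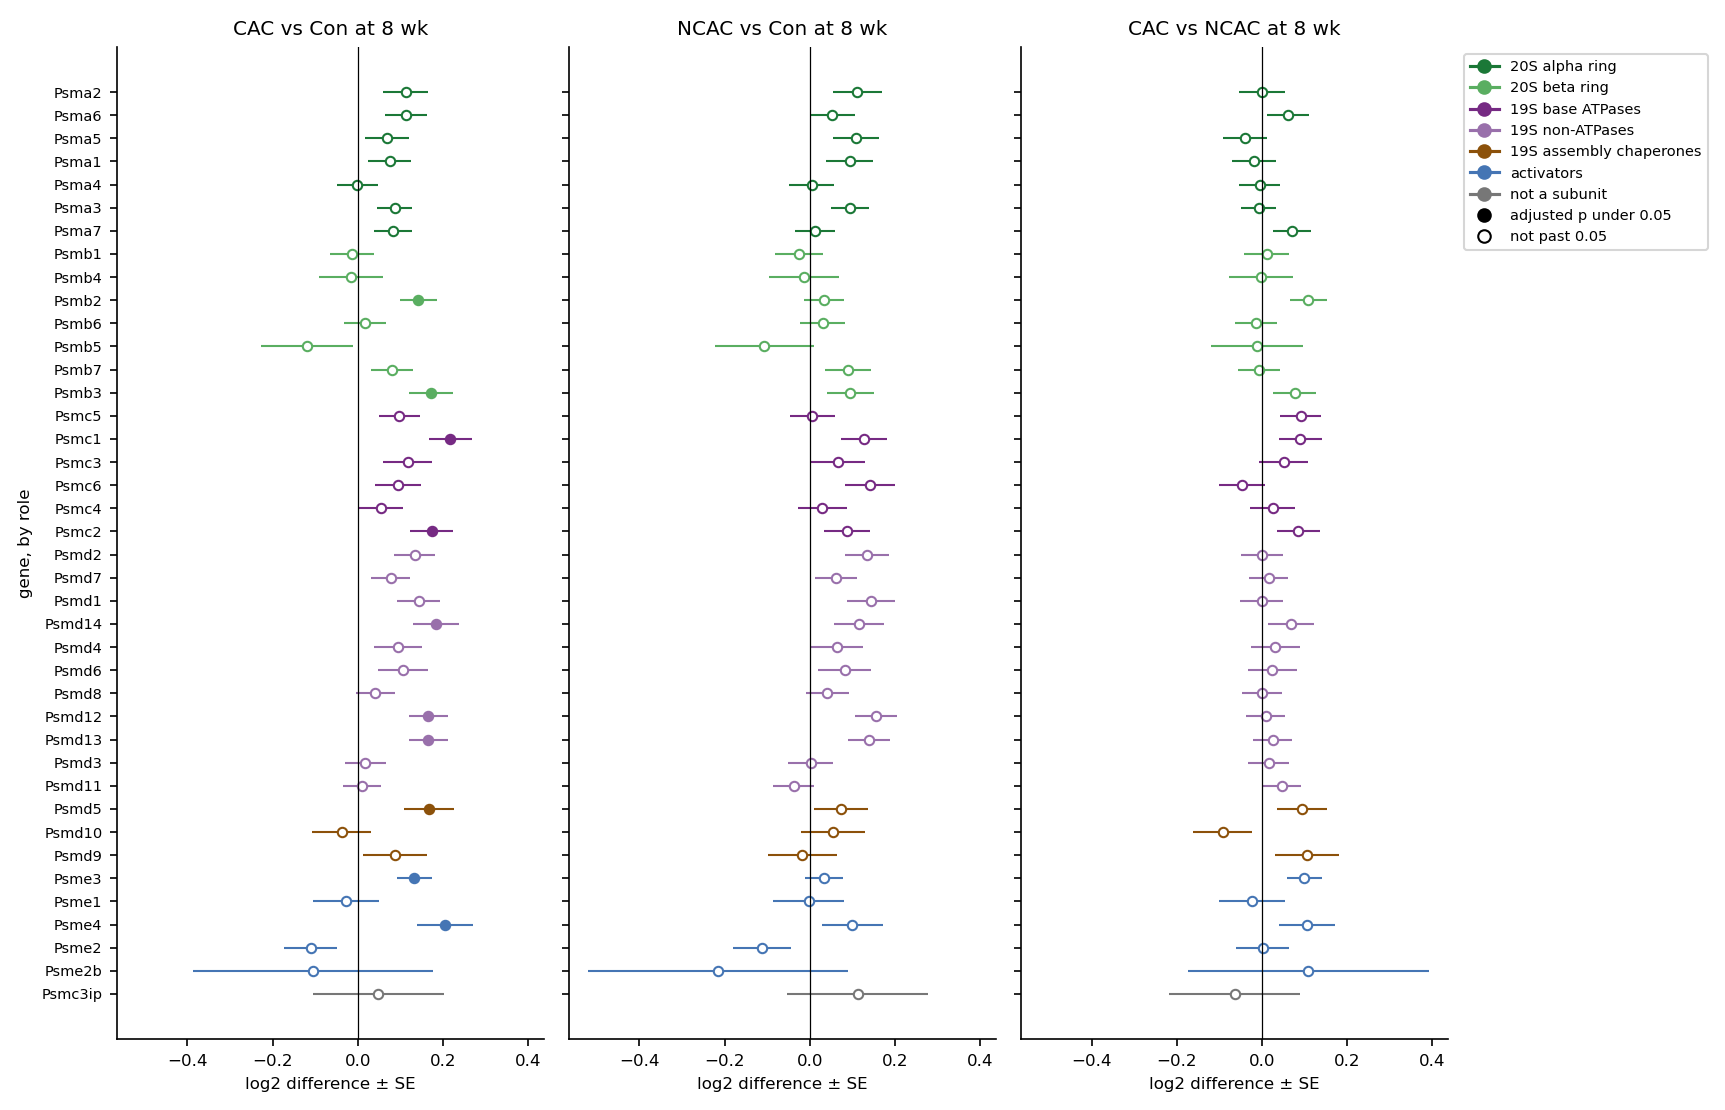
Log2 differences ± SE of each of the 40 genes at 8 wk, ordered by role, for CAC minus Con, NCAC minus Con and CAC minus NCAC; filled points have an adjusted p under 0.05. CAC minus Con holds 10 filled points, from 0.13 to 0.22, and the other panels none; both panels against Con use the same Con libraries.

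At the earlier weeks hardly any of the 40 genes passed between injections, which does not show that their levels were alike. CAC minus Con gave 1 of 40 at 2 wk (3.7% of all genes called), none at 4 wk (0.801%) and none at 6 wk (0.25%), and 1, 0 and 0 by voom. An unadjusted p under 0.05 was found for 7, 9 and 0 of the 40, beside 22.8%, 17.9% and 12.1% of all genes. The voom call at 2 wk was a lower gene and not the same one. The call at 2 wk in the main test was Psmd2, the ubiquitin-receptor scaffold of the base. It had 187, 192, 209 and 211 TPM in CAC, 160, 170, 173, 183 and 185 TPM in Con, and 174, 187, 197, 197 and 213 TPM in NCAC. Every CAC library was above every Con library, and NCAC spanned both. The difference of Psmd2 was 0.20 ± 0.06 log2 (adjusted p = 0.0391), and it did not pass in 6 of 10 alternatives, nor in 5 of 9 fits with a library left out, such as without replicate 1 of CAC (0.17 log2, adjusted p = 0.161). At 4 wk the smallest adjusted p was that of the beta subunit Psmb1 (0.19 log2, adjusted p = 0.0739). At 6 wk the median was 0.04 log2 (0.02 for all genes), and 0.08 log2 without replicate 5 of Con. Of the 40 differences at 6 wk, 30 were above 0 (75%, beside 55.2% of all genes).

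CAC minus NCAC gave none of 40 at 2 wk (0% of all genes), 4 wk (0.0128%) and 6 wk (1.77%), and 0 by voom each time. An unadjusted p under 0.05 was found for 1, 0 and 9 of the 40, beside 6.94%, 14.0% and 18.9% of all genes. At 6 wk 35 of the 40 differences were above 0 (87.5%, beside 58.5% of all genes), with a median of 0.07 log2 beside 0.03 for all genes. The smallest adjusted p was that of Psmd13 (0.16 log2, adjusted p = 0.0796), and up to 2 genes passed with a library left out. NCAC minus Con gave none of 40 at 2, 4 and 6 wk, where 0% of all genes were called each time, and 0 by voom. An unadjusted p under 0.05 was found for 4, 3 and 1 of the 40, beside 9.72%, 9.85% and 3.76% of all genes. At 6 wk the median was -0.05 log2, and -0.01 log2 without replicate 5 of Con.

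From 2 wk to 8 wk the catalytic subunit Psmb5 had the largest change. In CAC it had 84.0, 84.9, 88.9 and 118 TPM at 2 wk, and 106, 136 and 141 TPM as lowest, median and highest at 8 wk. In NCAC it had 84.1, 94.9, 105, 106 and 120 TPM at 2 wk and 122 to 141 TPM at 8 wk. In Con it had 95.6, 98.6, 107, 114 and 146 TPM at 2 wk and 134 to 148 TPM at 8 wk. The times were separate in NCAC and overlapped by a library at 2 wk in CAC and in Con. Psmb5 was higher at 8 wk by 0.47 ± 0.12 log2 in CAC (adjusted p = 0.00226) and by 0.35 ± 0.12 log2 in NCAC (adjusted p = 0.0368). In Con the difference was 0.33 ± 0.12 log2 (adjusted p = 0.057). With the length and GC trends removed the CAC difference was 0.11 log2 (adjusted p = 0.264), and the NCAC difference of Psmb5 was 0.04 log2 (adjusted p = 0.828). In NCAC the call was lost in 4 of 10 alternatives and in 7 of 10 fits with a library left out, replicate 5 at 8 wk among them.

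**Figure D5:**
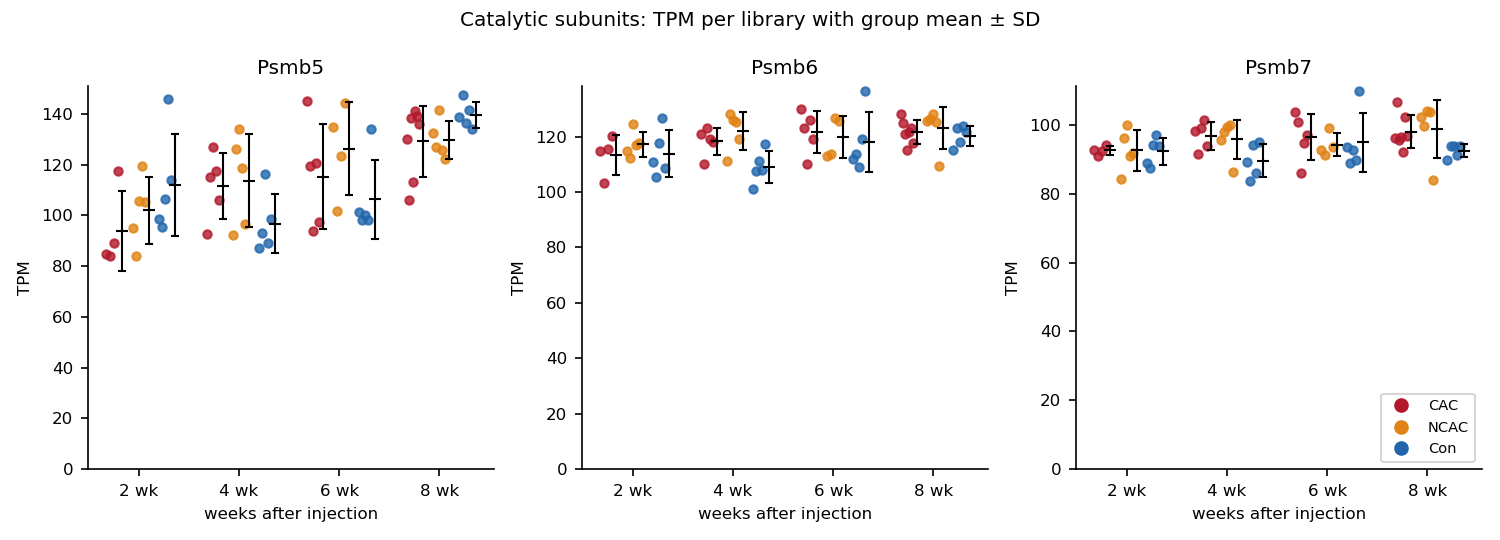
TPM of the catalytic subunits Psmb5, Psmb6 and Psmb7 per library (points) by week and injection, with the mean ± SD of each group. Psmb5 is wider in spread than the others and higher at 8 wk than at 2 wk in all 3 injections; its Con mean is 96.8 TPM at 4 wk and 140 TPM at 8 wk.

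In CAC, 8 of the 40 genes passed between 2 wk and 8 wk, 6 higher and 2 lower, where 31% of all genes were called, 10.8% higher and 20.1% lower. Besides Psmb5, the higher genes were Psmb4 (0.27 log2), Psmd9 (0.27 log2), Psma7 (0.16 log2), the ubiquitin receptor Psmd4 (0.16 log2) and Psmb2 (0.14 log2). The call of Psmd4 was lost in 3 of 10 alternatives and in 8 of 11 fits with a library left out. Among the CAC libraries of 2 wk, leaving out replicate 1 ended the call of Psmd9, replicate 2 that of Psmb4 and replicate 4 that of Psmb2. Psma7 went from 65.5, 65.6, 71.4 and 72.1 TPM at 2 wk to 72.2, 76.6 and 82.0 TPM as lowest, median and highest at 8 wk, without overlap (0.16 ± 0.05 log2, adjusted p = 0.00795). The assembly chaperone Psmd10, known as gankyrin, went down from 25.0, 25.4, 26.4 and 31.4 TPM to 19.4, 22.7 and 24.2 TPM, again without overlap (-0.27 ± 0.07 log2, adjusted p = 0.00595). Psmd10 did not pass without replicate 1 of CAC at 2 wk, the striatum-rich library (-0.19 log2, adjusted p = 0.071), or with the 6 rich libraries set aside (-0.21 log2, adjusted p = 0.0519). Psmd2 went from 187 to 211 TPM down to 160 to 188 TPM (-0.18 ± 0.05 log2, adjusted p = 0.00783). Psmd2 did not pass with the rich libraries set aside (-0.13 log2, adjusted p = 0.0838) or with the length and GC trends removed (-0.11 log2, adjusted p = 0.0729), nor did Psma7 with those trends removed (0.09 log2, adjusted p = 0.241).

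The number of CAC genes that passed over time depended on the settings. With median-of-ratios scaling it was 18, 16 of them higher (28.6% of all genes called), and the median of the 40 differences went from 0.03 to 0.09 log2; over all genes 2383 of 4459 calls were then higher, beside 1692 of 4831 in the main test. Voom also called 18. It was 13 with the length and GC trends removed (20.9% of all genes called), 5 when only these 2 groups were fitted and 5 without replicate 1 of CAC at 2 wk. For voom and these last 2 settings the share of all genes called is not given here. Psmb2 turned to -0.03 log2 with the length and GC trends removed.

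In NCAC, Psmb5 was the only gene of the 40 that passed (14% of all genes). In Con, 2 of the 40 passed, both lower at 8 wk, where 9.67% of all genes were called and 8% were called lower. Psma5, an alpha subunit, went from 162, 173, 174, 175 and 176 TPM at 2 wk to 148, 148, 149, 156 and 156 TPM at 8 wk, and the times did not overlap (-0.18 ± 0.05 log2, adjusted p = 0.0289). Psmd14 went from 83.1, 83.9, 87.4, 88.1 and 91.6 TPM to 72.2, 75.7, 76.1, 77.5 and 77.7 TPM, without overlap (-0.19 ± 0.06 log2, adjusted p = 0.0297). Psmc1 differed by -0.11 log2 in Con (adjusted p = 0.192), by -0.10 log2 in NCAC (-0.04 log2 without replicate 5 at 8 wk) and by -0.03 log2 in CAC. With median-of-ratios scaling Psma5 (-0.12 log2, adjusted p = 0.177) and Psmd14 (-0.13 log2, adjusted p = 0.103) did not pass in Con, and 2 other genes were called higher. None of the 40 passed without replicate 1 or 3 of Con at 2 wk, or without replicate 3 or 4 at 8 wk. At 8 wk, Con had the lowest of all 12 group means for 7 of the 10 genes called between CAC and Con, and CAC had the highest for 1 of them. These 10 were picked because Con was below CAC at 8 wk, so the counts are partly set by that choice. Over all 39 genes with a role, Con at 8 wk was lowest for 18, a count with no share of all genes beside it.

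No gene of the 40 passed the test of whether the change between 2 wk and 8 wk differed between injections. For CAC against Con, 0 of 40 passed (0.00641% of all genes), and for CAC against NCAC 0 of 40 (0.237%), and voom also called 0 in both. An unadjusted p under 0.05 was found for 3 and 0 of the 40, beside 9.64% and 11.3% of all genes. Against Con, 33 of the 40 values were above 0 (82.5%, beside 52.3% of all genes), with a median of 0.07 log2 beside 0.01 for all genes. Against NCAC, 27 were above 0 (67.5%, beside 50.1% of all genes), with a median of 0.04 log2 beside 0.0005 for all genes. Time since injection, age and what was handled with each week's samples cannot be told apart. In CAC the mean slope on length went from 0.0809 log2 per doubling at 2 wk to -0.0215 at 8 wk, and 7 of 8 oligodendrocyte genes (median -0.90 log2) and 6 of 7 thalamic genes (median -1.16 log2) were lower at 8 wk. All 7 striatal genes had a negative difference (median -1.26 log2), of which 1 passed. Of the other lists, neurons had 2 of 10 higher and 4 lower, astrocytes 2 of 8 higher and 4 lower, hippocampal pyramidal and granule cells 3 of 7 higher and 1 lower, endothelium 1 of 6 higher and 2 lower, and microglia 2 of 7 lower. None of the red cell and choroid plexus genes passed. Their part in the changes of the proteasome genes was not tested.

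The related genes were listed by function for CAC against Con at 8 wk, where 11.3% of all genes tested were called higher and 3.2% lower. The immunoproteasome subunits Psmb8 and Psmb9, which replace Psmb5 and Psmb6 in immune cells, went the opposite way: 2 of 3 were lower in CAC than in Con. Psmb8 had 1.55, 2.38 and 3.09 TPM as lowest, median and highest in CAC, 2.08 to 2.77 TPM in NCAC, and 3.17, 3.34, 3.35, 3.7 and 7.51 TPM in Con. All CAC values lay below all Con values, and 1 Con library was far above the rest. The difference of Psmb8 was -0.65 ± 0.18 log2 (adjusted p = 0.0144) and that of Psmb9 -0.65 ± 0.18 log2 (adjusted p = 0.0147). Without that library, replicate 5 of Con, they were -0.44 log2 (adjusted p = 0.093) for Psmb8 and -0.43 log2 (adjusted p = 0.0977) for Psmb9. The third gene, Psmb10, did not differ past the threshold (adjusted p = 0.983). Over the 3 genes at 8 wk, NCAC minus Con had a median of -0.51 log2 and CAC minus NCAC -0.03 log2, with 0 called in both. From 2 wk to 8 wk their median was 0.51 log2 in Con, 0.28 log2 in NCAC and 0.10 log2 in CAC, with 1 called higher in each. The 8 wk difference thus does not show a fall in CAC over time.

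Of the 8 genes that control subunit transcription, 4 had a difference above 0 and 1 was called higher, the small Maf gene Mafk. It had 9.88, 12.6 and 15.2 TPM as lowest, median and highest in CAC, 8.80 to 10.2 TPM in NCAC and 9.06 to 10.4 TPM in Con. Only the lowest CAC library fell within the Con range. The difference of Mafk was 0.35 ± 0.08 log2 (adjusted p = 0.00524), and it passed in every alternative run and with each library left out (highest adjusted p = 0.029). Nfe2l1 itself had 196 ± 11.6 TPM in CAC (SD, n = 7) and 196 ± 3.23 TPM in Con (SD, n = 5), with an adjusted p of 0.976.

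None of the 5 assembly factors of the core passed; the nearest, Psmg4, had 11.2 to 20.5 TPM in CAC and 21.9 to 27.0 TPM in Con (-0.50 log2, adjusted p = 0.0903), and is named after its values were seen. Of 14 tested partners of the proteasome with other names 1 was higher, AI314180, the mouse symbol of the proteasome adaptor Ecpas (0.25 ± 0.07 log2, adjusted p = 0.0147). Of 15 tested genes that supply or extract ubiquitinated proteins 3 were higher, namely Ufd1l (0.20 log2, adjusted p = 0.0174), a cofactor of the segregase Vcp, Ube2d3 (0.16 log2, adjusted p = 0.0207), a ubiquitin-conjugating enzyme, and Usp5 (0.12 log2, adjusted p = 0.0484), which takes apart free ubiquitin chains. Of 6 tested ubiquitin ligases known from muscle wasting 2 were higher, Fbxo21 (0.20 ± 0.05 log2, adjusted p = 0.00984) and Mdm2 (0.19 log2, adjusted p = 0.0366). Only 3 of the 6 differences were above 0, and their median was 0.07 log2.

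Not all of these calls held under other settings, and that of Usp5 was not checked under them. Ufd1l, Ube2d3 and Mdm2 did not pass with median-of-ratios scaling or voom, where the differences under that scaling were 0.14 log2 for Ufd1l (adjusted p = 0.0977), 0.10 log2 for Ube2d3 (adjusted p = 0.123) and 0.13 log2 for Mdm2 (adjusted p = 0.134). With the length and GC trends removed, Ube2d3 differed by 0.03 log2 (adjusted p = 0.649) and Mdm2 by 0.12 log2 (adjusted p = 0.133). With a library left out, the call was lost in 2 of 12 fits for Ufd1l (without replicate 2 or 6 of CAC), in 2 for Ube2d3 (without replicate 2 of CAC or 3 of Con), in 8 for Mdm2, and in none for AI314180 and Fbxo21.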

How the data were processed

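Hippocampal RNA from 60 libraries was extracted with Trizol, made into libraries with the TruSeq stranded mRNA kit and sequenced on an Illumina NovaSeq instrument, per the labels' protocols. The authors deposited 1 table of TPM for 47643 symbols. The build was mm10, per the submitters' processing notes, while neither aligner, counter, annotation release nor use of strand is given in the sources used here. Such values are per gene length and per library total, so a shift in abundant genes moves all others the opposite way. Values were whole multiples of a step, from which reads were recovered within 0.02 of a whole number for 24227 of 24227 genes above 0; 26 of 40 family gene lengths equalled the exon union of GENCODE M21. No pair of libraries was identical.

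Genes at 1 TPM or more in at least 4 libraries (15608) were tested with limma 3.58.1 (R 4.3.3, intensity trend) on log2(TPM + 0.5), a scale that understates changes of low genes. The 12 group means were fitted over all 60 libraries, so all comparisons share 1 estimate of spread, and p-values were Benjamini-Hochberg adjusted over all genes of a comparison at 0.05. The test was checked on simulated data. The members, gene lists and tests were chosen with earlier results of these data known. Named with values by library were the catalytic subunits, the 2 genes per role with the smallest p between CAC and Con at 8 wk, up to 3 called genes with the smallest p in each other comparison, and Nfe2l1, Psmb8, Psmb9, Psmb10 and up to 6 called related genes; other named genes were chosen after their values were seen. Alternatives were pseudocounts of 0.1 and 1, other filters and scaling, only the groups compared, a replicate block, removal of each library's trend on gene length and GC (15035 genes, spline with 5 degrees of freedom), leaving out libraries, and voom. Voom, leaving out libraries over time, and descriptions without the libraries that stood apart were added after seeing the data.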

Additional observations from a re-analysis of the deposited data

Results flagged for a closer look

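Of 60 groups of values, 6 held a library farther from its neighbours than expected of a sample of its size, where chance gives about 1 group in 20. The mean log2(TPM + 0.5) over the 40 genes was 6.23 in replicate 1 of NCAC at 2 wk, below the next value of 6.30. It was 6.51 in replicate 5 of Con at 6 wk, above the next value of 6.29. Replicate 5 of NCAC at 8 wk was low in 4 named genes: the catalytic subunits Psmb6 at 109 TPM (next 125 TPM) and Psmb7 at 84.1 TPM (next 99.7 TPM), the assembly chaperone Psmd5 at 25.6 TPM (next 30.8 TPM) and the alpha subunit Psma3 at 68.9 TPM (next 76.9 TPM). These 4 come from 1 library and are not independent.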

How the results depend on the processing

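Numbers of the 40 genes called in each comparison moved with the settings as follows, and the cause was not tested. The share of all genes called, given in brackets for some settings, moved as well. The counts are thus not read as a result about the family. For CAC against Con at 8 wk (10 called, 14.5% of all genes), median-of-ratios scaling gave 1 (9.03% of all genes). Voom gave 1 and the replicate block 4, and leaving out a library gave 1 to 12. For CAC against Con at 2 wk (1 called, 3.7% of all genes), median-of-ratios scaling gave 2, 1 of them lower (3.22% of all genes). The removed length and GC trend gave 0 (1.08% of all genes). No filter on low values, only the groups compared, the block, and setting aside 6 libraries rich in striatal or blood transcripts each gave 0. Leaving out a library gave 0 to 1. At 4 wk that range was 0 to 1, and for CAC against NCAC at 6 wk 0 to 2.

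For CAC at 8 wk against 2 wk (8 called, 31% of all genes), median-of-ratios scaling gave 18 (28.6% of all genes) and voom 18. The removed trend gave 13 (20.9% of all genes), the groups compared alone 5, the block 1, and leaving out a library 5 to 11. For NCAC (1 called, 14% of all genes), median-of-ratios scaling gave 3 (10.7% of all genes) and the removed trend 2 (4.24% of all genes). No filter, the groups compared alone and the block gave 0. A minimum of 5 TPM gave 3, the libraries set aside 3, voom 2, and leaving out a library 0 to 3. For Con (2 called, 9.67% of all genes), the removed trend gave 0 (0.173% of all genes). A minimum of 5 TPM gave 5, the groups compared alone 10, the block 0, the libraries set aside 5, and leaving out a library 0 to 4. In the other comparisons the count stayed at 0 in every alternative run.

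Of the values that turned sign, only Psmb2 of CAC over time had passed the test. Removing the trend turned Psmb5 between CAC and Con at 8 wk to 0.11 log2 and Psmb10 to 0.0612 log2, and it turned Psmb2 of CAC over time to -0.0276 log2. Psmb6 became -0.0455 log2 with median-of-ratios scaling and -0.0457 log2 with voom. For Nfe2l1, CAC vs Con at 8 wk, the value went to 0.0027 log2 with the libraries set aside and ranged from -0.0201 to 0.0229 log2 with each library left out in turn. For Psmb10, CAC vs Con at 8 wk, that range was -0.0383 to 0.0284 log2.

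The replicate numbers did not pair libraries: of 56 same-numbered pairs, 11 had residuals correlated above 0.1 (from -0.28 to 0.35), and 9 of 58 libraries correlated best with their own number. The replicate block left 4 calls between CAC and Con at 8 wk and 1 for CAC over time. Of the related genes called at 8 wk and checked under it, Mafk passed and Psmb8, Psmb9, Fbxo21, AI314180, Ufd1l, Ube2d3 and Mdm2 did not. Usp5 was not checked. Depth recovered from TPM steps sets no limit for most of these genes, but Psme2b rests on 1 to 25 reads a library. The labels do not say which animals the libraries come from, and protein levels or activity were not measured.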
